A study of Danio rerio with 20 samples.

Results

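The genes described are those of the zebrafish pineal light and melatonin system: the opsins parapinopsinb, parapinopsina, parietopsin, exorh and valopa, and the melatonin synthesis enzymes aanat1, aanat2, asmt and tph1a. These 9 genes were chosen by the measured counts themselves, because parapinopsinb was higher in all knockouts than in wild type. The rule names them by symbol, and 9 of the 32520 gene IDs of the count table were used for 8 of them; exorh was not analysed here. For 7 of the 9 genes a single ID was found. Of these, parapinopsinb (ENSDARG00000044672), parapinopsina (ENSDARG00000116976), parietopsin (ENSDARG00000052056), valopa (ENSDARG00000021150) and aanat2 (ENSDARG00000079802) matched exactly, ASMT (ENSDARG00000098249) matched when case was ignored, and aanat1 was read from the ID with the symbol AANAT (ENSDARG00000036567). For tph1a 2 IDs carried the symbol TPH1.

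Whole larvae of 4 genotypes were sequenced with 5 libraries each: wild type (WT), a knockout of aldh3a1 (ALDH3A1KO), a knockout of glo1 (GLO1KO) and the double knockout of both genes (DKO). All groups carried the transgene Tg(fli1:EGFP), in which the fli1 promoter drives green fluorescent protein in endothelial cells. Per the series' design text the double mutant line was made by CRISPR/Cas9. The sources used here give no larval age, time of day at sampling, number of larvae per library or number of founder lines. The product of glo1, glyoxalase 1, clears methylglyoxal, and that of aldh3a1 oxidises aldehydes.

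The pineal organ of fish is a light-sensing outgrowth of the roof of the brain. Its photoreceptors carry opsins that differ from those of the retina, among them parapinopsins and parietopsin. The same cells make melatonin from tryptophan by hydroxylation (tph), decarboxylation (ddc), acetylation (aanat) and methylation (asmt). In zebrafish aanat2 is the pineal acetylating enzyme and is expressed with a daily rhythm that peaks at night, whereas aanat1 is known mainly from the retina. Valopa encodes a vertebrate ancient long opsin, a light sensor known from deep brain cells.

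Libraries held 35092716 to 37190519 counts, and 22234 genes had enough counts to be tested. Values are given as CPM, the count of a gene scaled to library size with TMM factors. The targeted GLO1 transcript lay at 62.2 to 71.4 CPM in wild type and 74.9 to 81.7, 3.28 to 4.22 and 3.38 to 5.35 CPM in the aldh3a1, glo1 and double knockouts. The aldh3a1 transcript was not analysed here. The clock genes NR1D1, PER1 (ENSDARG00000056885) and rorcb, but not the period gene PER2, set wild type replicates 1 and 4 apart. NR1D1, a repressor of the clock, lay at 41.7 and 27.4 CPM in these libraries and at 118 to 213 CPM in the other 3 wild type libraries. For PER1 (ENSDARG00000056885), a period gene, the values were 8.31 and 6.45 against 35.0 to 52.595 CPM. For rorcb, a nuclear receptor of the clock, they were 86.1 and 102.6 against 22.1 to 32.5 CPM. Many comparisons with wild type are therefore also given without these 2 libraries, a choice made after seeing the data. Where no such value is printed, all 5 wild type libraries were used. In the aldh3a1 knockout, replicates 2 and 4 had NR1D1 at 95.4 and 90.7 against 206 to 245 CPM in the others. For PER1 the values were 22.1 and 21.0 against 48.0 to 56.3 CPM. Their rorcb was lower than in the others. No comparison was repeated without replicates 2 and 4 of that knockout together.

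Because the rise against wild type chose the genes, their differences from wild type are described without a test. Parapinopsinb, a non-visual opsin of the pineal organ, had wild type levels of 2.72, 3.93, 3.66, 4.63 and 4.19 CPM. Its levels were 14.03, 12.07, 12.14, 16.9 and 16.4 CPM in the aldh3a1 knockout, and 6.03, 6.88, 8.52, 6.58 and 6.43 CPM in the glo1 knockout. In the double knockout they were 8.23, 8.80, 8.37, 10.4 and 10.96 CPM. Every knockout library was above every wild type library, and the aldh3a1 knockout lay above all other libraries. Mean levels were 3.83 ± 0.714 CPM in wild type and 14.3 ± 2.29, 6.89 ± 0.964 and 9.36 ± 1.26 CPM in the aldh3a1, glo1 and double knockouts (SD, n = 5 each). On the log2 scale the difference from wild type was 1.90 (SE 0.14), 0.85 (SE 0.14) and 1.29 (SE 0.14) in the aldh3a1, glo1 and double knockouts. Without wild type replicates 1 and 4 these values were 1.86, 0.81 and 1.25. In a whole-larva library fewer pineal cells and less RNA per cell cannot be told apart, nor can more cells and more RNA.

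A level above wild type without overlap in all 3 knockouts was shared by 5.91% of the 22234 tested genes. Ranked by the log2 fold change against wild type, parapinopsinb stood at place 58 from the largest rise in the aldh3a1 knockout, at 423 in the glo1 knockout and at 225 in the double knockout. It was chosen for this rise, so high places follow from the choice. Of the 8 pineal IDs tested, 1 lay above wild type without overlap in the aldh3a1 knockout, where 20% of all tested genes did. In the glo1 knockout it was 1 of 8, beside 9.76% of all tested genes, and in the double knockout 2 of 8, beside 15.2%. Below wild type without overlap lay 1 of 8 in the aldh3a1 knockout (23.1% of all tested genes), 0 of 8 in the glo1 knockout (12.5%) and 1 of 8 in the double knockout (19.2%). Besides parapinopsinb, the ID above wild type was TPH1 ENSDARG00000029432 in the double knockout. Valopa was the ID below wild type in both cases.

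**Figure D1:**
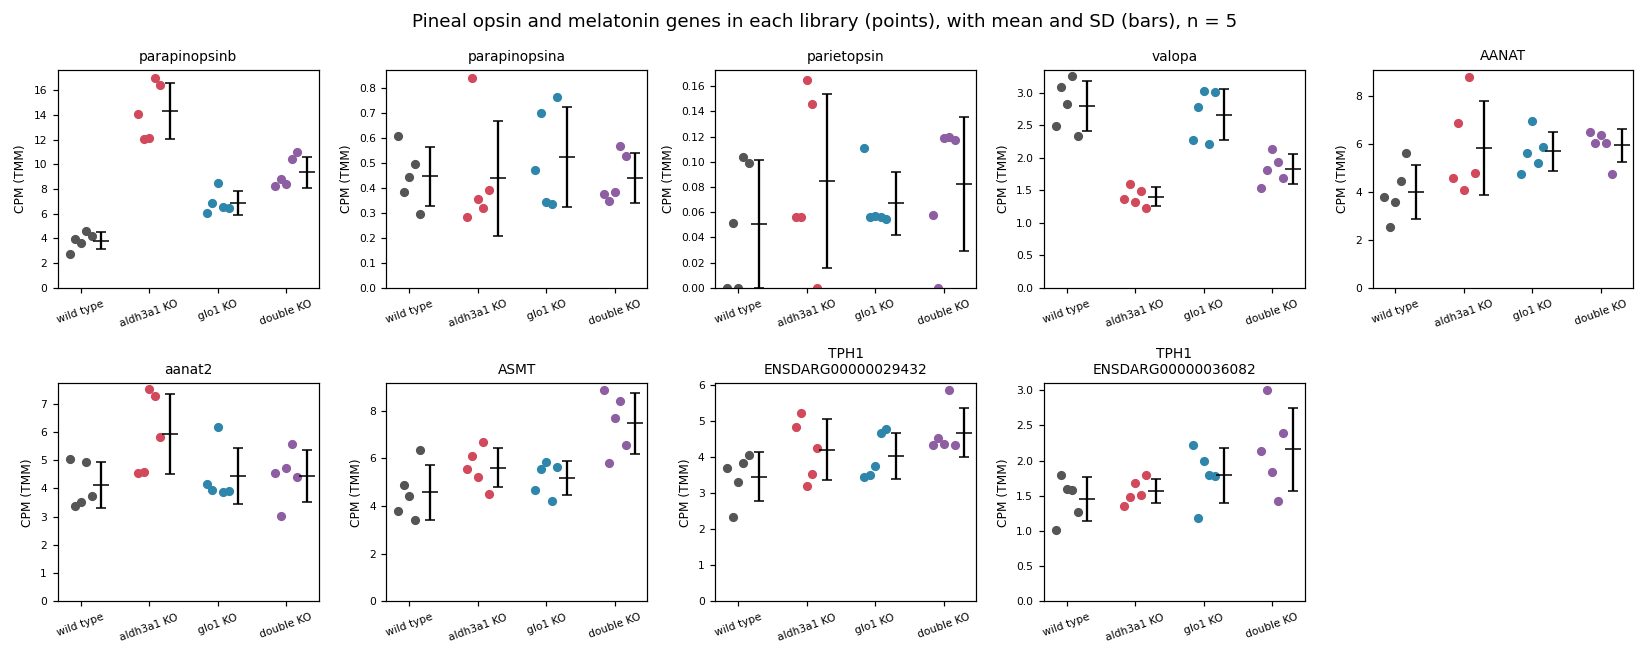
Level of each of the 9 pineal gene IDs (vertical axis, CPM with TMM scaling, from 0) in the 4 genotypes (horizontal axis); each point is a library, and the bar gives the mean and SD of 5 libraries. For parapinopsinb all knockout points lie above the highest wild type value of 4.63 CPM, while for parapinopsina the genotypes overlap.

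The rule does not name the comparisons between knockouts, and in them the edgeR test was applied. The members were chosen with earlier results of these data known, so these p-values may not be free of that choice. Parapinopsinb differed in all 3. It was lower in the double than in the aldh3a1 knockout by a log2 fold change of -0.61 (SE 0.13, edgeR adjusted p = 0.00133) and lower in the glo1 than in the aldh3a1 knockout by -1.06 (SE 0.13, edgeR adjusted p = 1.81e-06), without overlap between the libraries in either case. Its level in the double knockout was higher than in the glo1 knockout by 0.44 (SE 0.13, edgeR adjusted p = 0.0326), with overlap: the glo1 knockout replicate 3, at 8.52 CPM, lay above replicates 1 and 3 of the double knockout. This last call was lost when any of glo1 knockout replicates 1, 2, 4 or 5 or double knockout replicates 4 or 5 was left out (edgeR adjusted p up to 0.101 and log2 fold change from 0.38 to 0.53 over all 20 single omissions). By mean level the order was aldh3a1 knockout, double knockout, glo1 knockout and wild type. The place of wild type is a description, since the rule used it. Among the 3 tested comparisons, the double and glo1 knockouts were separated least firmly.

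Valopa showed lower levels in the genotypes without aldh3a1. It was measured at 2.49, 3.09, 2.83, 3.25 and 2.33 CPM in wild type and at 1.36, 1.60, 1.32, 1.49 and 1.23 CPM in the aldh3a1 knockout. Levels in the glo1 knockout were 2.28, 2.78, 3.02, 2.21 and 3.01 CPM, and the double knockout libraries had 1.53, 1.82, 2.14, 1.94 and 1.70 CPM. All libraries of the aldh3a1 and double knockouts were below all wild type and glo1 knockout libraries, and the latter groups overlapped. Against wild type the log2 difference was -0.996 (SE 0.15), -0.07 (SE 0.15) and -0.62 (SE 0.15) in the aldh3a1, glo1 and double knockouts. Without wild type replicates 1 and 4 it was -0.97, -0.05 and -0.59.

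Between knockouts valopa was higher in the glo1 than in the aldh3a1 knockout by 0.92 (SE 0.15, edgeR adjusted p = 5.68e-05) and lower in the double than in the glo1 knockout by -0.54 (SE 0.15, edgeR adjusted p = 0.0226), both without overlap. The latter call was lost without glo1 knockout replicate 3 or 5 or double knockout replicate 1 or 5 (edgeR adjusted p up to 0.0676). The double and aldh3a1 knockouts did not pass (log2 fold change 0.38, SE 0.16, edgeR adjusted p = 0.0858), with a 95% interval of the fold from 1.05 to 1.62. In the aldh3a1 and double knockouts valopa thus lay below wild type where parapinopsinb lay above it, which the plot of both genes by library shows.

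**Figure D2:**
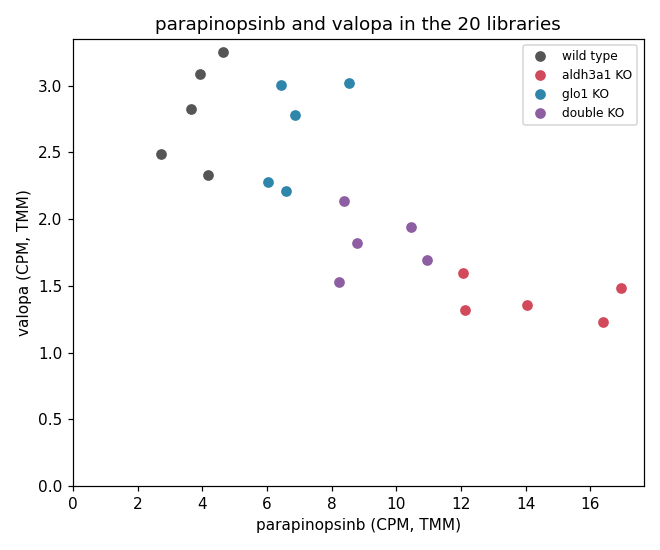
Level of valopa (vertical axis, CPM) against parapinopsinb (horizontal axis, CPM) in the 20 libraries, coloured by genotype; each point is a library. The aldh3a1 knockout lies at the lower right, with parapinopsinb at 12.07 CPM or more and valopa at 1.60 CPM or less, and the double knockout lies between it and the glo1 knockout.

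Parapinopsina, the other zebrafish parapinopsin, had few counts, 10 to 30 per library. Its mean levels were 0.446 ± 0.117 CPM in wild type and 0.439 ± 0.229, 0.524 ± 0.201 and 0.440 ± 0.0993 CPM in the aldh3a1, glo1 and double knockouts (SD, n = 5 each). All groups overlapped, and the aldh3a1 knockout included 1 library, replicate 2, at 0.842 CPM beside 0.283 to 0.390 CPM in the others. The log2 difference from wild type was -0.02, 0.23 and -0.02 in the aldh3a1, glo1 and double knockouts (SE 0.34, 0.33 and 0.34), and 0.22, 0.48 and 0.23 without wild type replicates 1 and 4. No comparison between knockouts passed (edgeR adjusted p = 0.998, 0.688 and 0.572). The 95% interval of the fold between the double and the aldh3a1 knockout ran from 0.628 to 1.60, so differences of that size were not resolvable at this depth.

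Parietopsin, an opsin known from the lizard parietal eye and present in the fish pineal, was at the limit of detection and was not tested. It had 51 counts over all 20 libraries, at most 6 in any library, and none in 4 libraries. A count of 0 allows up to 3 counts, or 0.0742 to 0.0901 CPM depending on the library (counting error only). This limit takes each count as a separate fragment, which was not tested. In 19 of the 20 libraries the parietopsin count was even, counting 0 as even. The group means of 0.0509, 0.0847, 0.0670 and 0.0825 CPM in wild type and the aldh3a1, glo1 and double knockouts lay at about this limit.

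The enzymes of melatonin synthesis are given in the order of the pathway. Tryptophan hydroxylase catalyses the first step. TPH1 ENSDARG00000029432 had mean levels of 3.46 ± 0.680 CPM in wild type and 4.21 ± 0.848, 4.04 ± 0.646 and 4.69 ± 0.671 CPM in the aldh3a1, glo1 and double knockouts, and TPH1 ENSDARG00000036082 had 1.45 ± 0.310, 1.57 ± 0.173, 1.79 ± 0.388 and 2.16 ± 0.591 CPM (SD, n = 5 each). Neither passed in any comparison between knockouts, where the smallest value was an edgeR adjusted p of 0.104 for ENSDARG00000036082 in the double against the aldh3a1 knockout. Without double knockout replicate 4 that value was 0.045, and over all single omissions it reached up to 0.295.

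AANAT, the acetylating enzyme read as aanat1, ranged from 2.55 to 5.62 CPM in wild type and 4.09 to 8.77, 4.75 to 6.95 and 4.74 to 6.49 CPM in the aldh3a1, glo1 and double knockouts. The means were 3.997 ± 1.14, 5.81 ± 1.962, 5.68 ± 0.830 and 5.93 ± 0.701 CPM (SD, n = 5 each), and every group overlapped with wild type. The log2 difference from wild type was 0.54, 0.51 and 0.57 (SE 0.195 each), and 0.56, 0.53 and 0.60 without wild type replicates 1 and 4. Between knockouts no comparison passed (edgeR adjusted p = 0.932, 0.881 and 0.906), and the 95% interval of the fold between the double and the glo1 knockout ran from 0.804 to 1.36.

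Aanat2, the pineal acetylating enzyme, was measured at 5.06, 3.39, 3.51, 4.94 and 3.72 CPM in wild type and at 4.53, 4.57, 7.50, 7.26 and 5.82 CPM in the aldh3a1 knockout. Values in the glo1 knockout were 4.17, 3.96, 6.18, 3.89 and 3.91 CPM, and the double knockout libraries had 4.56, 3.03, 4.72, 5.58 and 4.39 CPM. All groups overlapped, and the high wild type values were those of replicates 1 and 4, the libraries with low NR1D1. The log2 difference from wild type was 0.53 (SE 0.18), 0.10 (SE 0.18) and 0.11 (SE 0.18) in the aldh3a1, glo1 and double knockouts, and 0.74, 0.32 and 0.33 without these 2 wild type libraries. Between knockouts aanat2 did not pass (double against aldh3a1 knockout -0.41, SE 0.18, edgeR adjusted p = 0.0984; glo1 against aldh3a1 knockout -0.43, SE 0.18, edgeR adjusted p = 0.0595; double against glo1 knockout 0.01, SE 0.18, edgeR adjusted p = 0.981). The glo1 against aldh3a1 comparison passed in DESeq2 (DESeq2 adjusted p = 0.0434) and in edgeR without aldh3a1 knockout replicate 1 or 2, glo1 knockout replicate 3 or double knockout replicate 2. Over all single omissions its log2 fold change was -0.58 to -0.33, with edgeR adjusted p from 0.014 to 0.171.

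ASMT, which encodes the methylating enzyme of the last step, was measured at 3.79, 4.89, 4.42, 3.43 and 6.34 CPM in wild type and at 5.57, 6.09, 5.22, 6.68 and 4.50 CPM in the aldh3a1 knockout. The glo1 knockout had 4.70, 5.56, 5.87, 4.20 and 5.66 CPM, and the double knockout libraries had 8.89, 5.83, 7.69, 8.41 and 6.55 CPM. The highest 3 libraries were double knockouts, and the group overlapped with each of the others. ASMT was higher in the double than in the glo1 knockout by 0.52 (SE 0.15, edgeR adjusted p = 0.0291), a call lost without glo1 knockout replicate 1 or 4 or double knockout replicate 1 or 4 (edgeR adjusted p up to 0.0812). The double against the aldh3a1 knockout did not pass (0.41, SE 0.15, edgeR adjusted p = 0.0536), but did in DESeq2 (DESeq2 adjusted p = 0.039) and without wild type replicate 4 or 5, aldh3a1 knockout replicate 4 or double knockout replicate 2 or 5. Over all single omissions its edgeR adjusted p ran from 0.0267 to 0.142. The glo1 against the aldh3a1 knockout did not pass (-0.11, SE 0.16, edgeR adjusted p = 0.596). Against wild type the log2 difference was 0.29 (SE 0.16), 0.18 (SE 0.16) and 0.71 (SE 0.15) in the aldh3a1, glo1 and double knockouts, and 0.10, -0.01 and 0.52 without wild type replicates 1 and 4.

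Counted over the 8 tested IDs, 1 passed in the double against the aldh3a1 knockout (parapinopsinb), where 22.7% of all tested genes did. In the double against the glo1 knockout 3 of 8 passed (parapinopsinb, valopa and ASMT), beside 11.3% of all tested genes. In the glo1 against the aldh3a1 knockout 2 of 8 passed (parapinopsinb and valopa), beside 40.6%. With 8 IDs the counts of 1 and 2 are near the background and are not read as a result about the pineal genes, and each of the 3 calls in the double against the glo1 knockout was lost in some single omissions. All 3 comparisons share libraries. The number of genes called over the whole table in the double against the glo1 knockout, 2521, ranged from 1302 to 2854 when single libraries were left out, and the omission of glo1 knockout replicate 5 or double knockout replicate 4 or 5 moved it by more than 1.5 times.

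**Figure D3:**
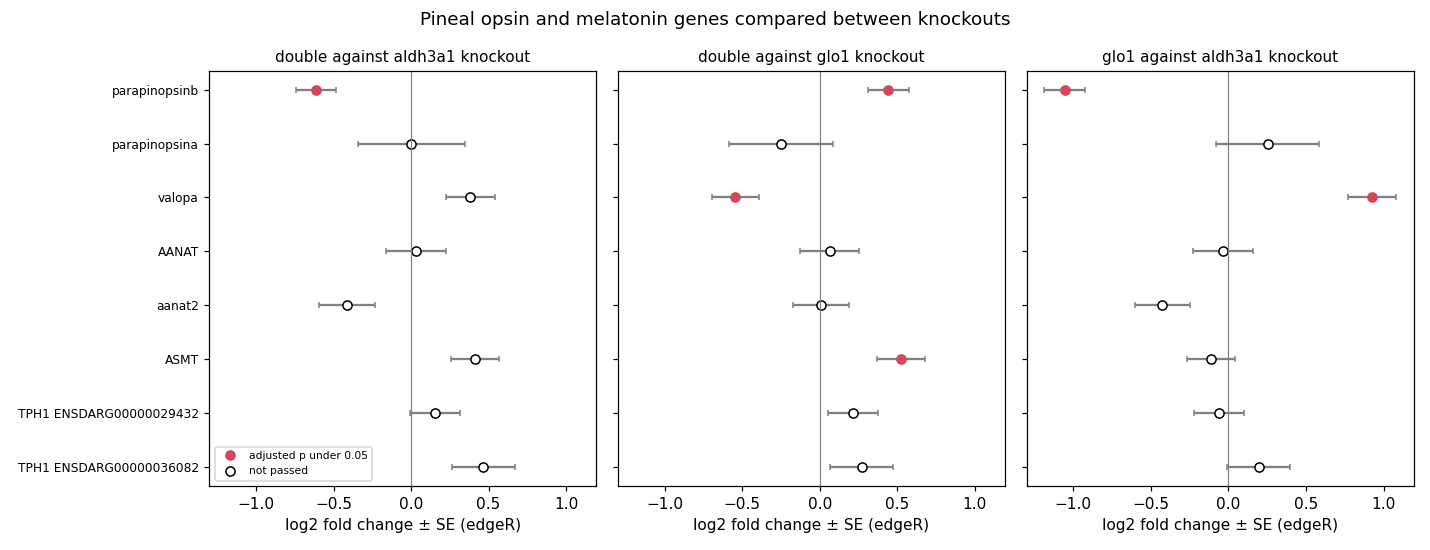
Log2 fold change of the 8 tested pineal gene IDs (horizontal axis; edgeR estimate with its SE as the bar) in the 3 comparisons between knockouts, 5 libraries a genotype; filled points passed an adjusted p of 0.05. Parapinopsinb and valopa lie on opposite sides of 0 in every panel.

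Set within the same library, the counts of parapinopsinb had higher mean ratios to those of 3 other members in the knockouts than in wild type, by amounts that depended on the gene. Parapinopsinb was chosen for its rise, so higher ratios than in wild type follow in part from that choice. Valopa itself lay below wild type in the aldh3a1 and double knockouts, which raises the ratio to it. These ratios were chosen after values were seen and are given without a test, and they carry gene length, so they are read between genotypes alone. Parapinopsinb counts over aanat2 counts had a mean ratio of 0.961 ± 0.252 in wild type and 2.50 ± 0.566, 1.58 ± 0.158 and 2.17 ± 0.507 in the aldh3a1, glo1 and double knockouts (SD, n = 5 each). Over ASMT the ratios were 0.872 ± 0.275, 2.60 ± 0.622, 1.34 ± 0.173 and 1.29 ± 0.305, and over valopa 1.38 ± 0.263, 10.4 ± 2.18, 2.61 ± 0.325 and 5.20 ± 0.928. For valopa the 4 genotypes did not overlap, and for ASMT wild type, with ratios up to 1.35, overlapped with the glo1 knockout (from 1.14) and the double knockout (from 0.925), which also overlapped with each other.

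The genes that surround these members in the pathway were taken from lists of pathway and marker genes, with members left out. Of 11 other genes of serotonin and melatonin synthesis, 2 rose and 4 fell in the aldh3a1 knockout, 1 rose and 2 fell in the glo1 knockout and 1 rose and 3 fell in the double knockout, with medians of -0.03, 0.13 and 0.04 on the log2 scale beside medians of -0.001, -0.0096 and 0.0132 over all tested genes. Over all tested genes 29.4% rose and 32% fell in the aldh3a1 knockout, 14.6% and 18.1% in the glo1 knockout and 23.9% and 26.4% in the double knockout. Without wild type replicates 1 and 4 the aldh3a1, glo1 and double knockouts had 12142, 4730 and 9405 called genes instead of 13637, 7286 and 11190. Shares by direction over all tested genes are not given for that setting, here or below, so its list counts have no matching background. The synthesis genes in that setting numbered 1 that rose and 5 that fell in the aldh3a1 knockout, 0 and 1 in the glo1 knockout and 1 and 3 in the double knockout. DDC, the decarboxylase of the pathway, fell in all 3 (-0.66, -0.38 and -0.52, SE 0.10 each, edgeR adjusted p = 4.86e-06, 0.0055 and 0.000165), and in the glo1 knockout this was lost without wild type replicates 1 and 4 (edgeR adjusted p = 0.109). PTS, an enzyme that makes the hydroxylase cofactor tetrahydrobiopterin, fell by 1.53 in the single knockout of aldh3a1 (SE 0.19, edgeR adjusted p = 2.61e-07) and by 0.66 in that of glo1 (SE 0.18, edgeR adjusted p = 0.00778). PTS was higher in the double than in the aldh3a1 knockout by 0.74 (SE 0.20, edgeR adjusted p = 0.00793). Asmt2, the paralog of asmt, rose by 0.51 in the aldh3a1 knockout (SE 0.10, edgeR adjusted p = 7.34e-05).

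Among 11 genes of melatonin reception and breakdown, 1 rose and 4 fell in the aldh3a1 knockout, 1 rose and 1 fell in the glo1 knockout and 1 rose and 3 fell in the double knockout (medians -0.47, -0.15 and -0.11). For comparison, 29.4%, 14.6% and 23.9% of all tested genes rose and 32%, 18.1% and 26.4% fell. When wild type replicates 1 and 4 were left out, 1, 0 and 0 rose and 4, 1 and 2 fell. The receptor gene MTNR1A rose by 0.69 in the aldh3a1 knockout (SE 0.13, edgeR adjusted p = 8.79e-05). Without wild type replicates 1 and 4 this rise was 0.55 (edgeR adjusted p = 0.0023). Mao, which encodes the monoamine oxidase that degrades serotonin, fell by 0.58, 0.30 and 0.44 in the aldh3a1, glo1 and double knockouts (SE 0.08 each, edgeR adjusted p = 1.17e-06, 0.00623 and 7.34e-05), and without wild type replicates 1 and 4 the glo1 knockout no longer passed (edgeR adjusted p = 0.148).

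In the lists of pineal and parapineal transcription factors and of other pineal-enriched genes, more genes rose than fell. Neither list is specific to the pineal organ, so this is not read as a rise of pineal genes. In wild type the median summed levels of the lists were 955 and 6044 CPM. Mean levels of parapinopsinb and aanat2 there were 3.83 and 4.12 CPM. Of 20 pineal and parapineal transcription factor IDs, 16 rose and 2 fell in the aldh3a1 knockout, 11 rose and 0 fell in the glo1 knockout, and 11 rose and 2 fell in the double knockout (medians 0.39, 0.21 and 0.32). Crx, a homeobox factor of photoreceptors and pineal cells, rose by 0.91, 0.55 and 0.76 (SE 0.08 each, edgeR adjusted p = 1.57e-09, 3.24e-05 and 7.05e-08), and OTX2, a related homeobox factor, by 0.62, 0.37 and 0.42 (SE 0.06 each, edgeR adjusted p = 4.25e-09, 6.86e-05 and 2.15e-06). ISL1, a LIM homeobox factor, rose by 0.86 in the aldh3a1 knockout (SE 0.09, edgeR adjusted p = 1.67e-08). The factors that fell against wild type are not named here. Not all factors ran alike between knockouts. In the glo1 against the aldh3a1 knockout ISL1 was lower and FOXD3 higher (-0.59 to -0.48 and 0.62 to 0.75 over 31 other settings). Over all tested genes 29.4%, 14.6% and 23.9% rose and 32%, 18.1% and 26.4% fell in the aldh3a1, glo1 and double knockouts. Without wild type replicates 1 and 4, 14, 9 and 12 of the 20 rose.

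Of 25 other pineal-enriched gene IDs, mainly of the phototransduction cascade, 17 rose and 1 fell in the aldh3a1 knockout, 11 rose and 1 fell in the glo1 knockout and 12 rose and 0 fell in the double knockout (medians 0.42, 0.37 and 0.36). All tested genes rose in 29.4%, 14.6% and 23.9% of cases and fell in 32%, 18.1% and 26.4%. In this list 14, 10 and 10 rose without wild type replicates 1 and 4. The listed agrp2 was read from the symbol agrp, which may be a different gene, and ndrg1b from 2 IDs. GNB3, a transducin beta subunit, rose by 1.097, 0.68 and 0.92 (SE 0.09 each, edgeR adjusted p = 3.53e-09, 3.18e-05 and 1.07e-07). RCVRN ENSDARG00000019902, which encodes a recoverin, rose by 0.96, 0.69 and 0.87 (edgeR adjusted p = 5.56e-07, 0.000211 and 3.88e-06). Between knockouts GNGT2 ENSDARG00000103543, a cone transducin gamma subunit, was lower in the glo1 and double than in the aldh3a1 knockout (-0.52 and -0.30, SE 0.07 each, edgeR adjusted p = 6.13e-06 and 0.00346).

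Genes of these lists are also expressed outside the pineal organ, those of phototransduction in retinal photoreceptors, and whole larvae contain the eyes. Markers of retinal neurons outside photoreceptors moved with them: 17 of 19 rose and 1 fell in the aldh3a1 knockout, 11 rose and 0 fell in the glo1 knockout and 16 rose and 1 fell in the double knockout (medians 0.65, 0.24 and 0.40). When both of those wild type libraries were left out, 17, 7 and 14 rose. Their summed level was 686 to 844 CPM in wild type and 1221 to 1387, 958 to 1074 and 1006 to 1172 CPM in the aldh3a1, glo1 and double knockouts. Trpm1b, a channel of bipolar cells, rose by 0.99, 0.65 and 0.97 (SE 0.08 each, edgeR adjusted p = 1.43e-09, 1.23e-05 and 9.61e-09). The summed level of the 20 pineal transcription factors, 864 to 1020 CPM in wild type, was 1221 to 1392, 1013 to 1150 and 1078 to 1229 CPM in the knockouts. Whether a changed share of eye tissue contributed to the pineal values was not tested. Marker genes of other tissues were counted in the aldh3a1, glo1 and double knockouts. Of 13 liver genes 11, 9 and 11 fell and 0, 0 and 1 rose. Of 20 skeletal muscle genes 17, 2 and 4 fell and 1, 2 and 4 rose. Of 18 lens genes 1, 16 and 16 rose and 6, 0 and 0 fell. Over all tested genes 29.4%, 14.6% and 23.9% rose and 32%, 18.1% and 26.4% fell. Skeletal muscle genes fell beyond that share in the aldh3a1 knockout alone. With wild type replicates 1 and 4 left out, 11, 8 and 11 liver genes and 16, 1 and 3 muscle genes fell. Muscle genes that rose then numbered 1, 2 and 3. Of the lens genes 0, 15 and 11 rose and 8, 0 and 0 fell. Of 17 habenula genes, markers of the brain nucleus beside the pineal organ, 9, 5 and 7 rose and 4 fell in each knockout, and 8, 1 and 4 rose and 4, 3 and 4 fell without wild type replicates 1 and 4. The habenula gene gng8 rose by 1.004, 0.59 and 0.89 (SE 0.10 each, edgeR adjusted p = 8.67e-09, 0.000148 and 1.56e-07). Without wild type replicates 1 and 4 its rise was 0.95, 0.53 and 0.84. Other habenula genes fell. With wild type replicates 1 and 4 left out, AOC1 had a log2 fold change of -1.98 for aldh3a1 knockouts (edgeR adjusted p = 2.45e-05). For double knockouts AOC1 was then at -1.27 and NRP1 at -0.63 (edgeR adjusted p = 0.00186 and 0.00019). For glo1 knockouts NRP1 was then at -0.36 and CHRNA5 at -0.34 (edgeR adjusted p = 0.0292 and 0.0289).

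**Figure D4:**
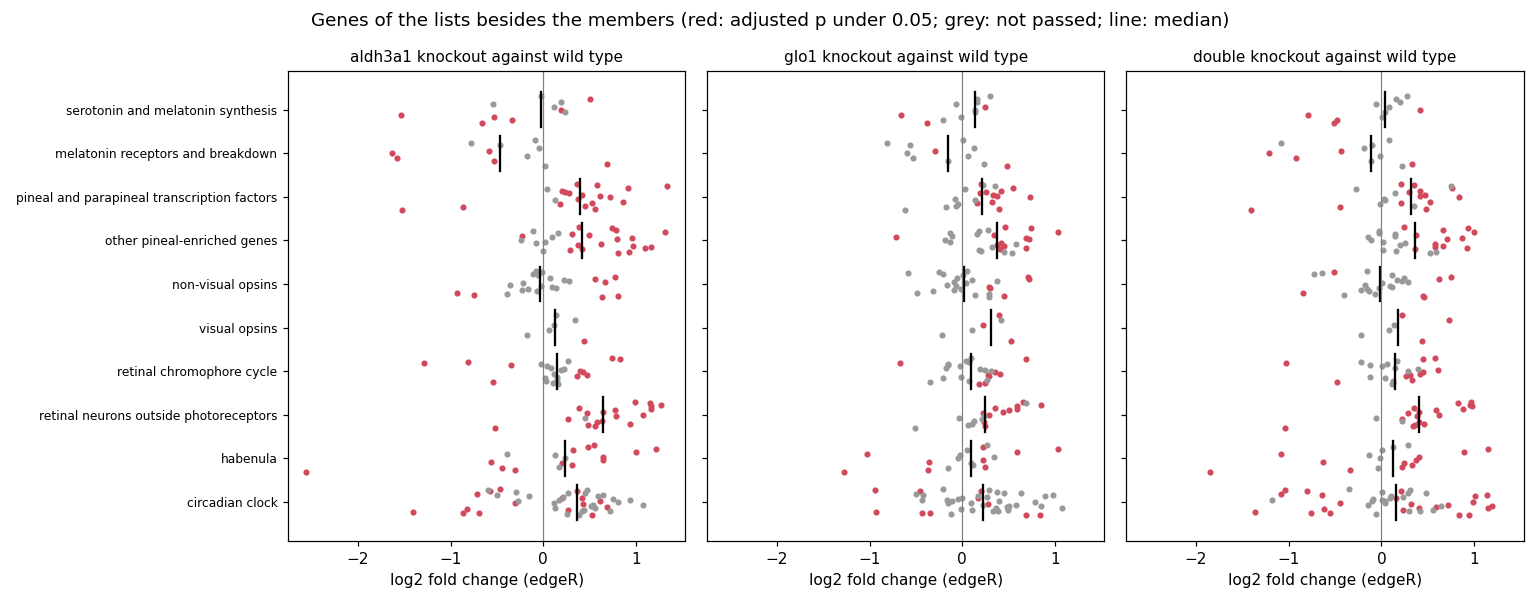
Log2 fold change against wild type (horizontal axis, edgeR) of every tested gene in 10 lists, members left out, in the aldh3a1, glo1 and double knockouts; red points passed an adjusted p of 0.05, grey points did not, and the black line is the list's median. Medians of the pineal factor, pineal-enriched, visual opsin, chromophore cycle and retinal neuron lists lie to the right of 0. So do those of the circadian clock list (0.37, 0.22 and 0.16) and the habenula list (0.24, 0.10 and 0.12). The lists of melatonin synthesis and breakdown scatter on both sides.

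Of 24 other non-visual opsin IDs, 5 rose and 2 fell in the aldh3a1 knockout, 5 rose and 0 fell in the glo1 knockout and 4 rose and 2 fell in the double knockout (medians -0.04, 0.02 and -0.01), and 4, 3 and 4 rose without wild type replicates 1 and 4. Over all tested genes 29.4%, 14.6% and 23.9% rose and 32%, 18.1% and 26.4% fell. Those that rose in all 3 included tmtops2a, a teleost multiple tissue opsin (0.77, 0.71 and 0.75, SE 0.13 each, edgeR adjusted p = 1.28e-05, 0.000238 and 3.19e-05), opn9 (0.55, 0.72 and 0.62, SE 0.08 each, edgeR adjusted p = 3.35e-06, 2.89e-06 and 1.57e-06) and the melanopsin ID OPN4 ENSDARG00000007553 (0.81, 0.45 and 0.45, SE 0.09 each, edgeR adjusted p = 1.99e-08, 0.000373 and 0.000121). It is 1 of 3 IDs with the symbol OPN4. In the glo1 against the aldh3a1 knockout it was lower (-0.41 to -0.31 over 31 other settings). ENSDARG00000022098 and ENSDARG00000053929 were higher there (0.71 to 1.18 and 0.54 to 0.79). Their values against wild type are not given here, and the opsin IDs of this list that fell are not named. The share of the list that rose in the aldh3a1 and double knockouts was below that of all tested genes. Of 6 visual opsins of the cones, 1, 3 and 3 rose and 0 fell (medians 0.12, 0.31 and 0.18), and 1, 2 and 1 rose without those libraries. OPN1SW, a short-wavelength opsin, rose by 0.44, 0.52 and 0.44 (SE 0.08 each, edgeR adjusted p = 2.55e-05, 3.88e-05 and 3.87e-05), and the medium-wavelength opsin opn1mw1 rose in glo1 knockouts (0.23, SE 0.07, edgeR adjusted p = 0.0186) but not without wild type replicates 1 and 4. Of 23 genes of the retinal chromophore cycle, which supplies opsins with retinal, 6, 7 and 8 rose and 4, 1 and 2 fell, or 5, 4 and 8 and 3, 0 and 2 without those libraries. Among them rlbp1a, a retinaldehyde binding protein, rose by 0.83, 0.68 and 0.45 (SE 0.06 each, edgeR adjusted p = 1.44e-10, 6.92e-08 and 1.75e-06).

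Because aanat2 is rhythmic, clock genes were set beside it. Of 43 clock genes, 8 rose and 8 fell in the aldh3a1 knockout, 5 rose and 5 fell in the glo1 knockout and 14 rose and 9 fell in the double knockout (medians 0.37, 0.22 and 0.16). Beside them, 29.4%, 14.6% and 23.9% of all tested genes rose and 32%, 18.1% and 26.4% fell. Without wild type replicates 1 and 4 the counts were 9 and 7, 1 and 3, and 6 and 6. CLOCK ENSDARG00000011703 fell in all 3 knockouts (-1.41, -0.93 and -1.37, edgeR adjusted p = 3.3e-07, 0.00035 and 1.11e-06), and also without these libraries (edgeR adjusted p = 1.54e-05, 0.00861 and 4.52e-05). PER2, a period gene that light induces in zebrafish, ranged from 12.12 to 149 CPM in wild type and 28.5 to 155, 16.5 to 173 and 18.2 to 88.3 CPM in the aldh3a1, glo1 and double knockouts, so libraries of the same genotype differed by up to 12.3 times. In the aldh3a1 knockout replicates 2 and 4 had the lowest NR1D1 (95.4 and 90.7 CPM), with aanat2 at 4.57 and 7.26 CPM, among the low and the high values of that group, and with the highest AANAT (6.85 and 8.77 CPM). In wild type the low NR1D1 replicates 1 and 4 had AANAT at 3.79 and 4.45 CPM, below replicate 5 at 5.62 CPM. With 2 low NR1D1 libraries in each of these genotypes, no relation of NR1D1 to either gene is read from these values. The part of sampling time in the differences of aanat2 and AANAT was not tested.

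**Figure D5:**
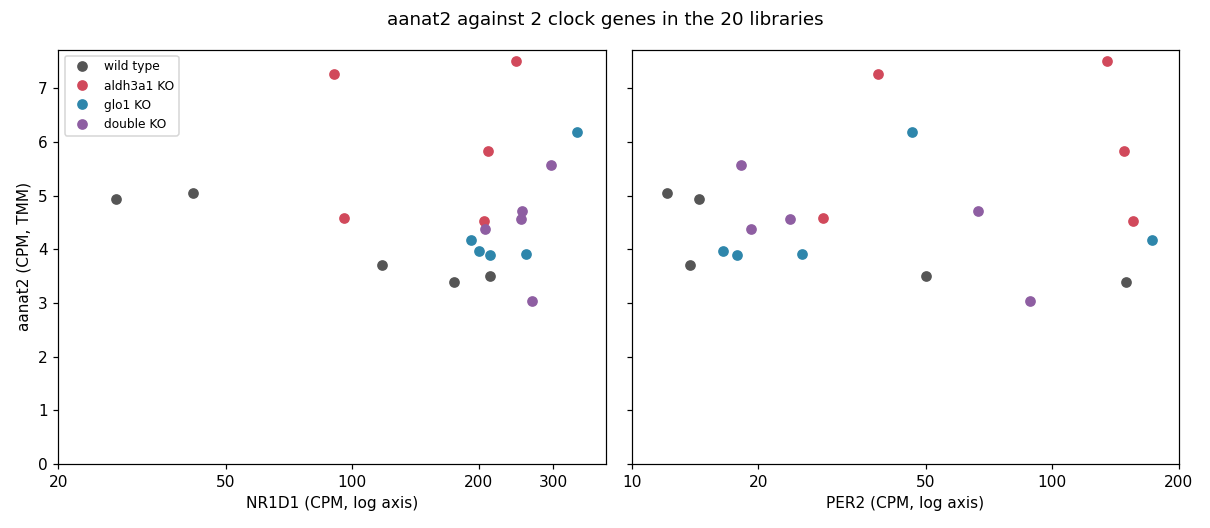
Level of aanat2 (vertical axis, CPM) against NR1D1 (left) and PER2 (right, both in CPM on log axes) in the 20 libraries, coloured by genotype. Wild type replicates 1 and 4 lie at the far left for NR1D1, at 41.7 and 27.4 CPM, with aanat2 at 5.06 and 4.94 CPM, and PER2 spreads widely within every genotype.

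Genes whose levels across the 20 libraries were most like those of the members were found by Pearson's correlation of log2(CPM + 1) over 18174 genes, as a description. For parapinopsinb they were si:dkey-89b17.7 (r = 0.981), fhdc3 (0.979), FMNL1 (0.979), RPL9 (0.978) and NCOA5 (0.976), and 668 genes had r over 0.9. Such values follow the differences between genotypes, and with genotype means subtracted they were 0.759, 0.855, 0.725, 0.675 and 0.749. For aanat2 the most like genes were zgc:152863 (0.843), shisa8b (0.837), MFSD5 (0.817), CACNG5 ENSDARG00000003326 (0.784) and TMX3 (0.782). For parapinopsina the highest value was 0.684, for si:dkey-204g14.5. The libraries share depth and genotype structure.

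The tested genes nearest to parapinopsinb in the RefSeq annotation of assembly GRCz12tu were examined. Only RefSeq symbols that matched a single gene ID were used, so nearer genes may have been passed over. Cacna1da, the adjacent gene, which encodes a calcium channel subunit, fell by 0.31, 0.39 and 0.58 in the aldh3a1, glo1 and double knockouts (SE 0.11 each, edgeR adjusted p = 0.0207, 0.00947 and 0.000186), opposite to parapinopsinb. On the other side the nearest matched gene was LDLRAD2, 10 genes away, which did not pass in any comparison (log2 fold change against wild type 0.12, 0.04 and 0.09). The genes between were not examined, so whether the difference extended along the chromosome was not tested. The nearest matched genes of aanat2 each lay 4 genes away. MPG did not pass in any comparison, and si:ch211-74m13.1 fell in the aldh3a1 and double knockouts (-0.66 and -0.54, SE 0.16 each, edgeR adjusted p = 0.00112 and 0.00703). In the glo1 against the aldh3a1 knockout si:ch211-74m13.1 was higher (0.42, SE 0.16, edgeR adjusted p = 0.0442), a call lost in 12 of 31 other settings. Next to parapinopsina, SELENOK, which encodes a selenoprotein, rose in the single knockout of glo1 (0.41, SE 0.06, edgeR adjusted p = 6.41e-05) but did not pass in double knockouts (0.07, SE 0.06, edgeR adjusted p = 0.345), and LRTM1 did not pass in any comparison.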

How the data were processed

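The deposited table holds raw counts per gene made by the authors with featureCounts 2.0.3 on build GRCz11, per the submitters' processing notes. Libraries were of mRNA, stranded, for the DNBSEQ platform, per the labels' protocols. No aligner, annotation or strand setting is named in the sources used here, and overlapping or antisense genes may share counts. Symbols were matched to 29201 of 32520 gene IDs through a table of IDs and symbols: exactly, then with case ignored, then by the stem without a paralog suffix. The stem matched 89 listed symbols and can lead to a different gene or to more IDs than the gene listed. Thus agrp2 was read from agrp, rdh12 and rdh13 were both read from rdh1, and sox1a and dmbx1a each brought in 2 IDs. The list counts include such IDs. Of 270 listed symbols, 252 had at least 1 ID; the other 18, the opsins exorh and tmtopsa among them, were not analysed here. The members and lists were chosen with earlier results of these data known.

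All 20 libraries entered a model in edgeR 4.0.16 under R 4.3.3 (TMM, filterByExpr by genotype, robust quasi-likelihood F-test, two-sided, Benjamini-Hochberg adjustment over the 22234 genes tested, threshold 0.05). These genes held 99.97% of the counts, and the common biological coefficient of variation was 0.130. The SE of a log2 fold change is its size divided by the square root of F. The 95% intervals of folds come from these SEs. Totals of 35092716 to 37190519 counts per library set the precision, and the floor of 3 counts covers counting error only. The labels do not say that libraries came from separate clutches, and p-values then reflect only how these libraries vary, which may be technical. The scripts were tested on simulated data.

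Named were all members, per list and comparison up to 3 called genes with the smallest adjusted p (clock genes and visual opsins may all be named), the 5 genes most like parapinopsinb, parapinopsina and aanat2, the tested neighbours of these genes, and GLO1; the text prints a selection of these, made after values were seen. The alternatives comprised DESeq2 1.42.0, 3 other scalings, limma-voom (limma 3.58.1) with quality weights, other filters, no robust estimation, only the genotypes compared, the replicate number as a block and each library left out in turn. Figures were drawn with matplotlib 3.10.9.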

Additional observations from a re-analysis of the deposited data

Results flagged for a closer look

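Within each genotype the 5 libraries were checked for a library far from the others (Dixon's test), in 56 groups, and 7 met it; chance alone marks about 1 in 20 groups. Parapinopsina stood high in aldh3a1 knockout replicate 2, at 0.842 CPM. Parietopsin stood high in glo1 knockout replicate 1, at 0.111 CPM, which is 4 counts. AANAT stood low in double knockout replicate 5, at 4.74 CPM. Aanat2 stood high in glo1 knockout replicate 3, at 6.18 CPM. TPH1 ENSDARG00000029432 stood high in double knockout replicate 4, at 5.88 CPM. PER2 stood high in wild type replicate 2, at 149 CPM, and in glo1 knockout replicate 1, at 173 CPM.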

How the results depend on the processing

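Parapinopsinb in the double and the glo1 against the aldh3a1 knockout, and valopa in the glo1 against the aldh3a1 knockout, kept their direction and stayed past the threshold in all 31 other settings (log2 fold change -0.68 to -0.53, -1.14 to -0.98 and 0.88 to 0.99). The cause of the following changes was not tested, except that leaving out libraries lowers the number of samples. Without wild type libraries 1 and 4 the glo1 knockout against wild type had 4730 called genes instead of 7286, and the log2 fold change of rorcb turned to 0.038. With library totals alone, parapinopsina (-0.048) and AANAT (-0.017) in the double against the aldh3a1 knockout and aanat2 in the double against the glo1 knockout (-0.043) turned, and ASMT in the double against the glo1 knockout (0.47) was no longer called. That scaling moved the median of all genes against wild type by -0.11, -0.10 and -0.15 in the aldh3a1, glo1 and double knockouts and the share of higher calls from 47.9%, 44.6% and 47.5% to 36.0%, 21.9% and 23.6%; for the double knockout the share went from 48.8% to 36.8% against the aldh3a1 knockout and from 39.8% to 22.8% against the glo1 knockout. With limma-voom AANAT in the glo1 against the aldh3a1 knockout turned (0.043). ASMT in the double against the aldh3a1 knockout became called with upper-quartile factors (0.44), DESeq2 (0.41), limma-voom (0.43), the 1 CPM filter (0.42), only the genotypes compared (0.42) and without wild type libraries 1 and 4 (0.41); aanat2 in the glo1 against the aldh3a1 knockout became called with DESeq2 (-0.43). The replicate numbers showed no general pairing of the samples. Deviations of 30 same-number pairs correlated from -0.26 to 0.35 (median -0.0048), 9 were over 0.1, and 5 of 20 libraries correlated best with their own number. Whether libraries of some numbers share an origin was not tested. With the replicate block aanat2 in the glo1 against the aldh3a1 knockout became called (-0.41), aanat2 in the double against the glo1 knockout was at -0.0005, and no other call of a member changed. With each library left out in turn, the double against the glo1 knockout had 1302 to 2854 called genes (main 2521), the low value being among those without glo1 knockout replicate 5 or double knockout replicate 4 or 5. In the double against the glo1 knockout the log2 fold change was 0.38 to 0.53 for parapinopsinb, -0.60 to -0.49 for valopa, -0.083 to 0.16 for aanat2 and 0.45 to 0.60 for ASMT, and the log2 difference of parapinopsinb over ASMT counts was -0.18 to 0.036. In the double against the aldh3a1 knockout it was -0.12 to 0.38 for parapinopsina, -0.074 to 0.24 for AANAT, 0.34 to 0.50 for ASMT and 0.32 to 0.58 for TPH1 ENSDARG00000036082. In the glo1 against the aldh3a1 knockout it was -0.14 to 0.17 for AANAT, -0.58 to -0.33 for aanat2 and -0.15 to 0.028 for TPH1 ENSDARG00000029432. Depth limits parapinopsina and parietopsin: the 1 CPM filter removed parapinopsina, which has no value there. The planned search of promoter windows for motifs was not run, since no promoter sequences were used here.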

Other observations

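Small counts in the table were more often even than odd. Of 79951 count values from 1 to 10, 55.0% were even, with 18182 values of 2 beside 14787 of 1, and 9910 of 4 beside 7729 of 3. For parietopsin, counting 0 as even, 19 of 20 libraries held an even count. Parapinopsina, with 10 to 30 counts per library, is the other member whose values lie in a low range.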
